A study of Drosophila melanogaster with 50 samples.

Results

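The comparison described here is that of adult flies kept inside a magnetic levitator at 1g* with flies kept outside it at 1g, so that the magnetic field was present or absent while effective gravity was the same. Its members were the 3 arrays titled 1g* and the 2 arrays titled outside without a temperature, 5 of the 50 arrays of the series. All 5 were labelled as Oregon R wild-type females, 5 days old, at 14C. A magnetic levitator uses a strong, uneven field that repels the water of living tissue. The same bore therefore also gave females at 0g* (n = 3), where the magnetic force opposes weight, and at 2g* (n = 3), where it adds to it. Further females stood outside the magnet at 24C (n = 3), 1 of them with a recorded temperature of 14C that goes against its title, and these 14 arrays were fitted together. Separate runs of 80 h gave 2 arrays at 1g*, 2 at 0g* and 3 outside at 24C. The 1g* flies differed from the outside flies in place as well as in field, and these cannot be told apart. Whole flies were the source of the RNA, as far as the labels tell.

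The 1g* position is the internal control of such a magnet, and the question is which transcripts respond to the field when weight does not change. Fruit flies have several systems that bear on it. Cryptochrome, the blue light receptor of the circadian clock, has been linked to behaviour in magnetic fields in this species. The Turandot genes encode small secreted proteins that the fat body releases into the haemolymph after heat, wounding, infection or other stress, in part through JAK/STAT signalling. In females, most transcripts of the abdomen belong to the ovary, where nurse cells load the oocyte and follicle cells then secrete the vitelline membrane and the chorion of the eggshell.

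The tissue labels were checked first. The yolk protein list (5 genes made in the female fat body and ovary, with their uptake receptor) had a median log2 intensity of 13.85, 13.97 and 14.07 on 1g* replicates 1, 2 and 3, and of 14.15 and 14.01 on outside replicates 1 and 2. Yp1 read 14.15, 14.26 and 14.26 at 1g* and 14.33 and 14.25 outside. Female transcripts were thus near the top of the scale on all 5 arrays. The genes of the male accessory gland and seminal fluid (31 measured) had medians of 7.85, 4.19 and 4.13 at 1g* and 4.12 and 4.08 outside, where array background lay between 4.19 and 4.49. The 34 testis and sperm genes had medians of 5.73, 4.25 and 4.17 at 1g* and 4.12 and 4.22 outside. 1g* replicate 1 therefore carried male transcripts beside the female ones, with the ejaculatory bulb gene EbpII at 11.26 there and at 3.40 to 3.59 on the other 4 arrays. As signs of RNA quality, the 3' minus 5' difference of GAPDH was 1.84, 1.81 and 2.01 at 1g* against 1.87 and 1.66 outside, with overlap. That of the actin control was 1.33, 1.27 and 1.46 against 1.25 and 0.96, higher on all 3 arrays at 1g*, and its part in the results was not tested.

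The 3 arrays at 1g* were less alike than those of the other groups. A range over 2 log2 units within the group was seen for 246 probe sets at 1g* (1.31%), against 46 at 0g*, 55 at 2g* and 84 outside at 24C, each of 3 arrays. Replicate 2 was the 1g* array closest to the outside mean, with a root mean square difference of 0.28, and replicates 1 and 3 lay at 0.73 and 0.47. The lists that spread most within 1g* were the chorion genes (15 of 17 with a range over 2), the accessory gland genes (19 of 31), the testis genes (16 of 34) and the vitelline membrane genes (6 of 13), against 1.85% of all 11982 genes.

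In the field at 1g*, 5 of 18769 probe sets were up-regulated at an adjusted p under 0.05 and 0 were down-regulated (0.0266% and 0.0% of those tested, limma). At an unadjusted p under 0.05 there were 1706 higher (9.09%) and 1780 lower (9.48%). The median difference over all probe sets was -0.01. The 5 were TotC, the cysteine cathepsin CtsL3, the Pax6 gene toy, and 2 probe sets that have no symbol in the array annotation used here, 1635549_at and 1623757_at. All 5 had arrays that did not overlap between the groups, as had 3087 probe sets in the upward direction (16.4%).

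The largest difference belonged to 1635549_at. It read 11.70, 11.88 and 11.77 at 1g* and 6.37 and 7.18 outside. The groups stood far apart, with 1g* near the upper end of the intensity scale. The difference was 5.01 on the log2 scale (SE 0.50, 32.2-fold, adjusted p = 0.00322).

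TotC, a member of the Turandot family on chromosome arm 3R, had intensities of 10.29, 11.27 and 10.75 at 1g* and of 6.64 and 5.71 outside. The lowest 1g* array was more than 3 log2 units above the higher outside array. It rose by 4.59 (SE 0.65, 24.2-fold, adjusted p = 0.0472). The other 4 measured Turandot genes did not pass. TotB, also on 3R, read 4.33, 4.71 and 4.12 at 1g* and 4.02 and 4.19 outside. TotZ on 3R and TotF on 2L were at background in both groups, and TotE on 2L differed by -0.01 (SE 0.17). TotE read 4.49, 4.64 and 4.37 at 1g*, just above array background. TotA, TotM and TotX had no probe set with a single symbol.

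CtsL3 (3R) encodes a protease of the cathepsin L type, a class that breaks down proteins in lysosomes and in the gut. Its values were 8.51, 8.27 and 8.21 at 1g* and 7.09 and 6.47 outside, with no overlap, a rise of 1.55 (SE 0.23, 2.93-fold, adjusted p = 0.0472). Of the 9 cysteine cathepsin genes measured, it alone passed. Swim, a secreted relative, followed with 9.0 to 9.52 against 8.22 and 8.54 (difference 0.93, SE 0.27, adjusted p = 0.196), whereas CtsL1, the main lysosomal cathepsin L, was at 12.13, 12.23 and 12.17 against 12.35 and 12.25 (difference -0.12, SE 0.12).

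toy (twin of eyeless), on the small chromosome 4, encodes a Pax6 transcription factor at the head of the eye specification network and is also used in the adult brain. Its brightest probe set read 6.46, 6.29 and 6.31 at 1g* and 5.02 and 4.71 outside, a rise of 1.49 (SE 0.22, 2.81-fold, adjusted p = 0.0472). The other probe sets of toy were dim and did not pass: one read 4.01, 4.41 and 4.48 against 3.83 and 3.91, below background outside (difference 0.43), and one was at background in both groups (difference -0.10). The probe sets of this gene therefore did not give the same answer. Among its partners, ey (the other Pax6 gene) differed by 0.25 (SE 0.14) and so by 0.54 (SE 0.21), and 1 of the 15 genes on the Pax and retinal determination list passed, toy itself. The remaining call, 1623757_at, read 7.69, 7.30 and 7.39 at 1g* and 5.49 and 5.82 outside (difference 1.80, SE 0.26, adjusted p = 0.0472).

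These calls kept their direction and most of their size when any single array was left out, but most lost the threshold. With outside replicate 1 left out, 0 probe sets passed in limma (2026 at an unadjusted p under 0.05). The same step for 1g* replicate 1, 1g* replicate 3 and outside replicate 2 left 1635549_at alone (adjusted p = 0.0126, 0.0283 and 0.0426). TotC had adjusted p values of 0.121, 0.145, 0.207 and 0.202 without 1g* replicate 1, 1g* replicate 3, outside replicate 1 and outside replicate 2, while its difference stayed between 4.13 and 5.06. CtsL3 stayed between 1.24 and 1.86 and toy between 1.33 and 1.64 over the same fits. Leaving out 1g* replicate 2 kept all 5 and added many others, as given further on. When the array with male transcripts, 1g* replicate 1, was omitted, the 5 differences were as large or nearly so: 5.05 for 1635549_at, 4.84 for TotC, 1.69 for 1623757_at, 1.46 for CtsL3 and 1.44 for toy.

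**Figure D1:**
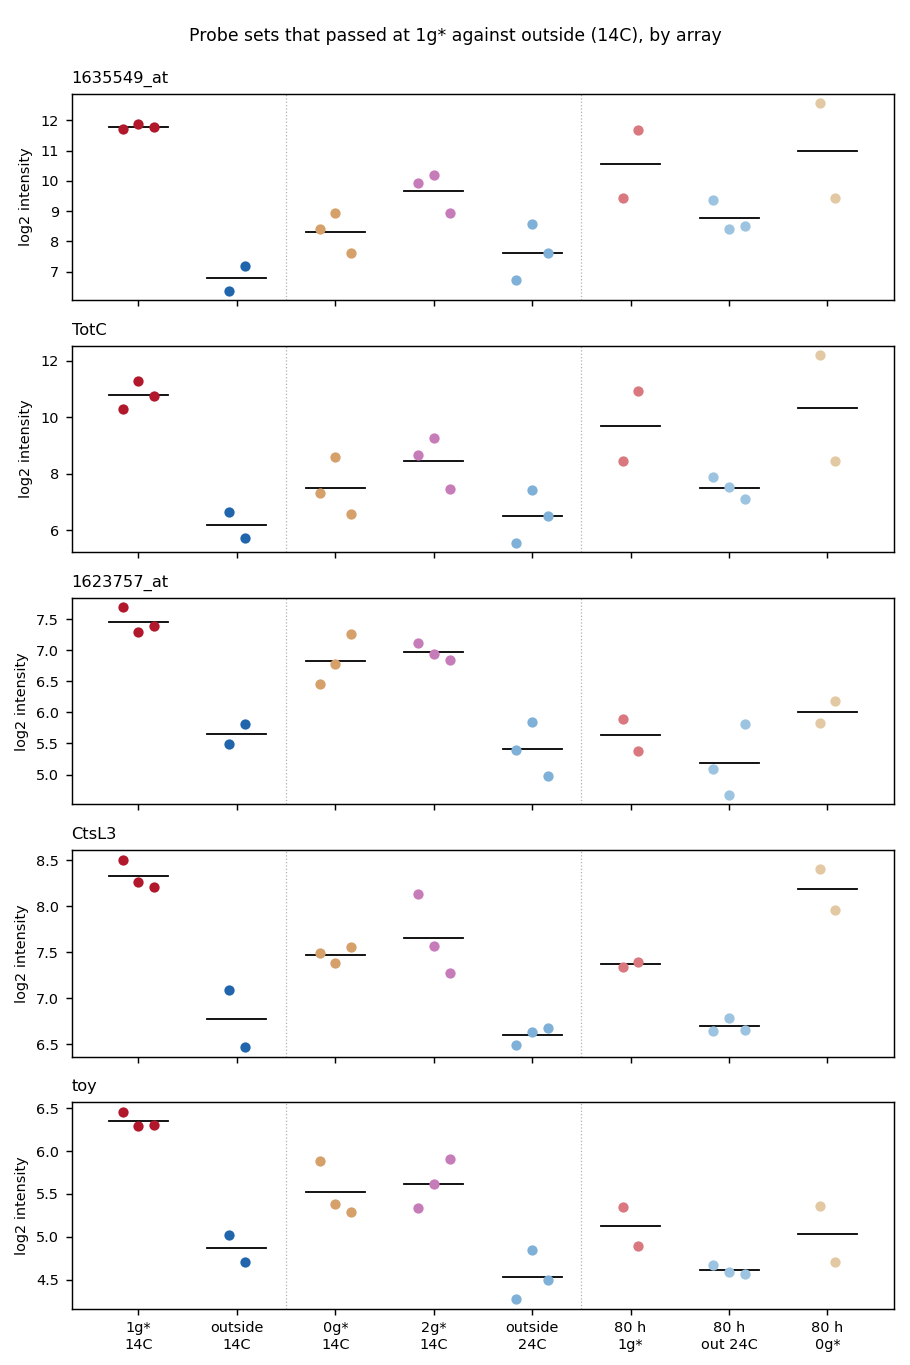
Log2 intensity of the 5 probe sets that passed, 1 panel each, on every array of the magnet runs (points) with the group mean (black line), for 1g*, outside at 14C, 0g*, 2g*, outside at 24C and the 80 h runs. In each panel the 1g* points lie above the 6 points at 0g* and 2g*, and the outside points at 14C below them or at their lower edge.

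The other positions in the bore place these values. TotC read 7.33, 8.60 and 6.56 at 0g* and 8.65, 9.26 and 7.45 at 2g*, and 5.55, 7.41 and 6.49 outside at 24C. Both field positions were intermediate, above the outside mean and under every 1g* array. The same order held for the means of all 5 probe sets, with 0g* and 2g* between outside and 1g*, a pattern that 14.1% of all probe sets shared. Against outside, 1635549_at differed by 1.55 at 0g* (SE 0.50) and by 2.90 at 2g* (SE 0.50, adjusted p = 0.38), and TotC by 1.32 (SE 0.65) and 2.28 (SE 0.65). These comparisons use the same outside arrays as the one at 1g*. The 5 were called for high 1g* and low outside values, so this order of means gives no separate support. At 0g* and at 2g* 0 probe sets passed (limma, 571 and 802 at an unadjusted p under 0.05). Outside at 24C, CtsL3 read 6.49, 6.63 and 6.68 and toy 4.27, 4.84 and 4.49, close to the outside values at 14C.

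Set directly against the mean of 0g* and 2g*, where the field is shared and effective gravity differs, 1g* gave 0 probe sets past the threshold (limma), with 2013 higher (10.7%) and 2353 lower (12.5%) at an unadjusted p under 0.05. The smallest adjusted p was 0.0822. It was reached by 1635549_at, which stood 2.78 above the mean of both positions (SE 0.39). Galphaq, a G protein subunit of phototransduction, reached it with 1 of 2 probe sets (1.05, SE 0.16, the other 0.02, SE 0.15). So did Glut4EF (0.61, SE 0.09) and, downward, CG13998 (-1.05, SE 0.16). Send2 had 0.0823 at a difference of 2.73 (SE 0.42). TotC stood 2.80 above the mean of both positions (SE 0.50, adjusted p = 0.118) and bam 1.42 below it (difference -1.42, SE 0.26, adjusted p = 0.118). All 3 arrays at 1g* lay above all 6 at 0g* and 2g* for 898 probe sets (4.78%) and below them for 496 (2.64%), and each of the 5 called probe sets was among the former. The 5 had been called for high values on these same 1g* arrays, so their place there gives no separate support.

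Below the threshold, the smallest p values upward included genes of the reproductive tract, the fat body and metabolism. Send2, a serine protease of the sperm storage organs (spermathecae), read 8.43, 6.24 and 8.21 at 1g* and 4.38 and 4.45 outside (difference 3.21, SE 0.55, adjusted p = 0.128). It was at 4.31 to 5.93 on the 6 arrays at 0g* and 2g*. Fbp2, a fat body protein related to alcohol dehydrogenase, read 8.54, 6.79 and 7.58 against 4.87 and 5.16 (difference 2.62, SE 0.50, adjusted p = 0.133). Both were clear of the outside arrays on every 1g* array, though the 1g* arrays differed among themselves by over 1 log2 unit. Fbp1, a receptor for larval storage proteins, followed with 1.53 (SE 0.39, adjusted p = 0.192). Pepck1, which commits carbon to gluconeogenesis, read 11.95, 11.34 and 11.82 against 9.98 and 10.62 (difference 1.4, SE 0.27, adjusted p = 0.133). The lectin gene lectin-33A differed by 1.38 (SE 0.26), the respiratory complex gene UQCR-11 by 1.27 (SE 0.24), the RNA-binding protein gene sm (smooth) by 1.52 (SE 0.27), and MFS9 and CG31760 by 0.86 and 0.81, each with an adjusted p of 0.133.

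Genes of detoxification and digestion also differed upward without passing. Of 72 cytochrome P450 genes, which oxidise toxins, hormones and fatty acids, 0 passed after adjustment, 23 were higher and 0 lower at an unadjusted p under 0.05 (10.4% and 12.2% of all genes), and 31 had all 1g* arrays above both outside arrays (43.1%, against 17.8% of all genes). The median difference of the list was 0.46, and it stayed between 0.34 and 0.58 with any 1 array left out. Shifts from the outside mean were 0.655, 0.19 and 0.465 on 1g* replicates 1, 2 and 3. Against the same outside arrays, the list median was 0.05 at 0g* and 0.11 at 2g*. Cyp4e3 read 9.89, 10.20 and 8.67 at 1g* and 7.39 and 7.58 outside (difference 2.10, SE 0.42, adjusted p = 0.152). Cyp6a18 read 8.43, 8.17 and 8.13 against 6.86 and 7.12 (difference 1.25, SE 0.26, adjusted p = 0.152), and Cyp4ac2 differed by 1.12 (SE 0.26). Of 42 digestive enzyme genes, 7 were higher and 0 lower at an unadjusted p under 0.05, and 10 did not overlap upward (23.8%, not far from the 17.8% of all genes). Most Jonah and trypsin protease genes of this list overlapped. The list median was 0.39, which became 0.18 without outside replicate 1 and 0.24 without 1g* replicate 1. At 0g* and 2g* it was 0.14 and 0.21 against the same outside arrays. The amylase relative Amyrel read 7.33, 6.71 and 6.96 against 5.39 and 5.84 (difference 1.39, SE 0.27, adjusted p = 0.133), and the maltase genes Mal-A4 and Mal-A2 differed by 1.30 (SE 0.36) and 1.19 (SE 0.35).

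Among genes of energy metabolism none passed either. Of 20 glycolysis and gluconeogenesis genes, 9 were higher and 0 lower at an unadjusted p under 0.05, and 12 did not overlap upward (60.0%), where 10.4% of all genes were higher at that p and 17.8% did not overlap upward. The median was 0.38, and 0.21 without outside replicate 1. Hex-A, the hexokinase of flight muscle, read 10.28, 9.66 and 9.88 at 1g* and 9.15 and 9.10 outside (difference 0.81, SE 0.21). The 24 fat body storage and lipid genes had 9 higher and 0 lower and a median of 0.43. Of 47 oxidative phosphorylation genes 3 were higher and 0 lower, a smaller share than that of all genes, and 16 did not overlap upward (34.0%). The median was 0.27, and 0.15 without outside replicate 1. Their array medians were 12.15, 11.82 and 11.93 at 1g* and 11.41 and 11.85 outside, so outside replicate 2 lay within the 1g* range. Against the same outside arrays, the glycolysis median was -0.004 at 0g* and 0.14 at 2g*. That of the fat body list was 0.10 and 0.17, and that of oxidative phosphorylation -0.02 and -0.02.

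Genes of muscle, nerve and eye were brighter at 1g* as groups, again with 0 members past the adjusted threshold. Of 26 sarcomere and muscle genes, 9 were higher and 0 lower at an unadjusted p under 0.05, and 16 did not overlap upward (61.5%), against 10.4% and 17.8% of all genes. The median was 0.60, with 0.34 without outside replicate 1 and 0.425 without 1g* replicate 1. Shifts from the outside mean were 0.965, 0.29 and 0.56 on 1g* replicates 1, 2 and 3, largest on the array with male transcripts. Its part in these values was not tested. Against the same outside arrays, the list median was -0.15 at 0g* and 0.19 at 2g*. Msp300, a giant nesprin that anchors muscle nuclei, read 9.13, 8.42 and 8.89 against 7.5 and 8.0 (difference 1.06, SE 0.25, adjusted p = 0.18). tn (thin), which maintains sarcomeres, and RyR, the calcium release channel, differed by 0.92 (SE 0.27) and 0.80 (SE 0.28). Of 37 neuronal and synaptic genes, 12 were higher and 0 lower and 19 did not overlap upward (51.4%), with a median of 0.34, and 0.265 without 1g* replicate 1. Shifts from the outside mean were 0.52, 0.265 and 0.37 on 1g* replicates 1, 2 and 3. At 0g* and 2g* the list median against the same outside arrays was -0.075 and -0.02. The potassium channel gene Sh read 6.45, 6.17 and 6.16 against 5.33 and 5.33 (difference 0.93, SE 0.21, adjusted p = 0.173), elav, the pan-neuronal RNA-binding protein, differed by 0.97 (SE 0.23) and the GABA receptor gene Rdl by 0.68 (SE 0.19).

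Of 17 photoreceptor and phototransduction genes, 10 were higher and 0 lower at an unadjusted p under 0.05, and 10 did not overlap upward (58.8%), against the same 10.4% and 17.8% of all genes. The median was 0.63, with 0.40 without outside replicate 1 and 0.44 without 1g* replicate 1. Shifts from the outside mean were 0.915, 0.34 and 0.555 on 1g* replicates 1, 2 and 3, again largest on the array with male transcripts. Against the same outside arrays, the list median was -0.15 at 0g* and -0.002 at 2g*. inaD, the scaffold of the phototransduction complex, read 7.38, 7.03 and 7.03 at 1g* and 6.09 and 6.59 outside (difference 0.81, SE 0.17, adjusted p = 0.17). rdgB, a lipid transfer protein of photoreceptors, read 8.91, 8.33 and 8.66 against 7.55 and 7.39 (difference 1.16, SE 0.26, adjusted p = 0.172). Arr2, the arrestin that shuts off rhodopsin, read 11.10, 10.64 and 10.83 against 9.94 and 10.41 (difference 0.68, SE 0.20). The light-gated channel genes trp and trpl differed by 0.63 (SE 0.29) and 0.46 (SE 0.18). The array medians of this list were 8.71, 8.15 and 8.41 at 1g*, 7.55 and 7.72 outside at 14C, and 5.75, 6.18 and 5.89 outside at 24C, so both outside groups stood below 1g*, the warmer one further.

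The clock and magnetoreception list held 14 measured genes, of which 5 were higher and 1 lower at an unadjusted p under 0.05 (10.4% and 12.2% of all genes), with a median of 0.47 at 1g*, against 0.08 at 0g* and 0.185 at 2g*. Without overlap, 8 were higher (57.1%, against 17.8% of all genes) and 3 lower (21.4%, against 13.6%). The lower ones were cyc, dco (-0.37, SE 0.18) and jet (-0.30, SE 0.14). Array medians were 8.045, 8.11 and 8.3 at 1g* and 7.445 and 7.395 outside at 14C. Outside at 24C they were 7.27, 8.425 and 7.865, so 1 array there stood above every 1g* array. Clk, an activator of the clock, read 5.92, 5.29 and 5.74 at 1g* and 4.67 and 4.84 outside (difference 0.90, SE 0.19, adjusted p = 0.172). Its partner cyc read 7.85, 8.71 and 8.44 against 9.17 and 8.91 (difference -0.71, SE 0.23, adjusted p = 0.202). Both partners of this heterodimer therefore differed in opposite directions, without overlap in either gene. In both, 1g* replicate 1 lay furthest from the outside arrays and replicate 2 nearest, for cyc in the order of the germline genes described further on. Pdp1 and vri, the activator and repressor that set Clk rhythms, read 8.61, 7.89 and 8.16 against 7.1 and 7.2 (difference 1.07, SE 0.27) and 9.06, 8.33 and 8.71 against 7.79 and 7.59 (difference 1.01, SE 0.30). The repressor genes per and tim differed by 0.63 (SE 0.18) and 0.47 (SE 0.27). cry, the light receptor, read 7.14, 6.62 and 7.08 at 1g* and 6.35 and 6.56 outside. Its arrays did not overlap, but replicate 2 was only just above the outside arrays, and the difference of 0.49 (SE 0.26) had an adjusted p of 0.315. MagR, an iron-sulphur cluster protein that has been proposed to bind Cryptochrome, read 9.39, 9.06 and 9.42 against 8.81 and 8.68 (difference 0.55, SE 0.15, adjusted p = 0.196). The neuropeptide gene Pdf and its receptor gene Pdfr differed by 0.15 (SE 0.21) and 0.12 (SE 0.17), with overlap in both.

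**Figure D2:**
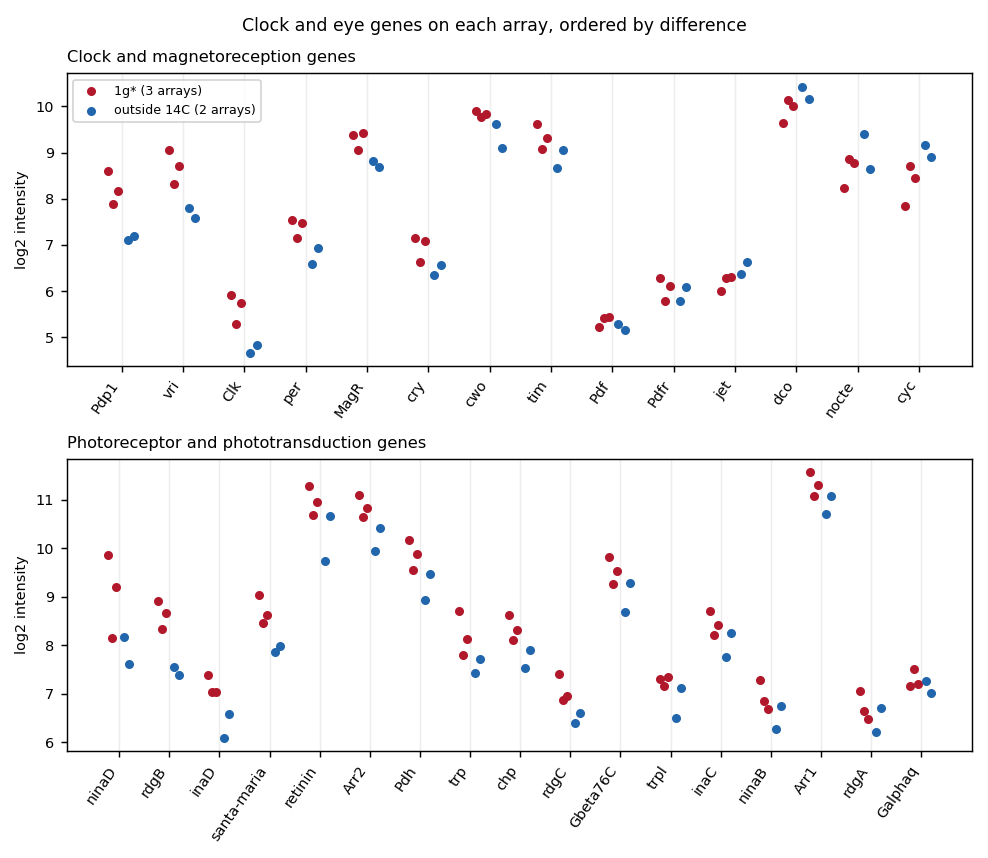
Log2 intensity of each clock and magnetoreception gene (upper panel, 14 genes) and each photoreceptor gene (lower panel, 17 genes) on the 3 arrays at 1g* and the 2 arrays outside at 14C, ordered by difference. Red points lie above blue ones for most genes, by 1.07 for Pdp1, and below them for cyc (by 0.71), dco and jet.

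Downward, the genes with the smallest p values were CG11523, at 6.97, 7.86 and 7.53 at 1g* and 8.79 and 8.60 outside (difference -1.24, SE 0.20, adjusted p = 0.0965), CG1840 (-1.14, SE 0.22) and CG13998 (-1.02, SE 0.20), both with an adjusted p of 0.133. Genes of transcription and protein modification followed: IntS4 of the Integrator complex (-0.68, SE 0.15), the TFIID subunit gene Taf9 (-0.66, SE 0.15) and the farnesyltransferase gene Fntb (-0.58, SE 0.13), each with an adjusted p of 0.172, and CG42382 (-0.82, SE 0.19).

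Eggshell genes gave the widest downward differences. Vm32E, a vitelline membrane protein, read 7.17, 8.87 and 8.72 at 1g* and 11.22 and 11.13 outside (difference -2.92, SE 0.66, adjusted p = 0.172). Vm34Ca read 10.98, 11.90 and 11.16 against 13.43 and 13.04 (difference -1.89, SE 0.42), Vm26Ac 4.67, 6.73 and 7.09 against 9.38 and 9.39 (difference -3.22, SE 0.83), and Vm26Aa 10.29, 11.94 and 11.48 against 13.23 and 12.95 (difference -1.85, SE 0.50). All 3 arrays at 1g* were below both outside arrays for these genes. Of 13 vitelline membrane and early eggshell genes, 0 passed, and 8 were lower and 0 higher at an unadjusted p under 0.05 (12.2% and 10.4% of all genes). Downward, 7 did not overlap (53.8%, against 13.6% of all genes), and the median difference was -2.25. The array medians were 6.30, 9.0 and 7.92 at 1g* and 9.38 and 9.71 outside. Against the same outside arrays, the list median was 0.43 at 0g* and -0.89 at 2g*. Fewer cells of a type and less RNA per cell cannot be told apart in whole flies.

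The chorion, laid down after the vitelline membrane, gave a split among the 1g* arrays instead. Cp36 read 8.20, 12.94 and 4.76 at 1g* and 12.81 and 13.31 outside, and Cp38 7.95, 13.30 and 6.67 against 13.36 and 13.73. Replicate 2 thus stood at the outside level, and replicates 1 and 3 were lower by 4 log2 units or more. The list of 17 genes had array medians of 5.29, 10.29 and 5.60 against 9.57 and 11.02. The median difference was -3.01 (-4.55 without 1g* replicate 2). Only 2 genes were lower at an unadjusted p under 0.05, Cp36 (difference -4.43, SE 1.81) and Cp38 (-4.24, SE 1.75), where 12.2% of all genes were lower. Downward, 4 did not overlap (23.5%, against 13.6% of all genes). Low chorion levels also stood on an array outside the field, with a median of 5.36 on outside 24C replicate 2 against 10.85 and 10.79 on the other arrays of that group, and of 7.12 on 0g* replicate 1. Yolk protein genes, which the fat body supplies, differed little: Yp1 by -0.07 (SE 0.11), Yp2 by -0.17 (SE 0.12) and Yp3 by -0.08 (SE 0.12).

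**Figure D3:**
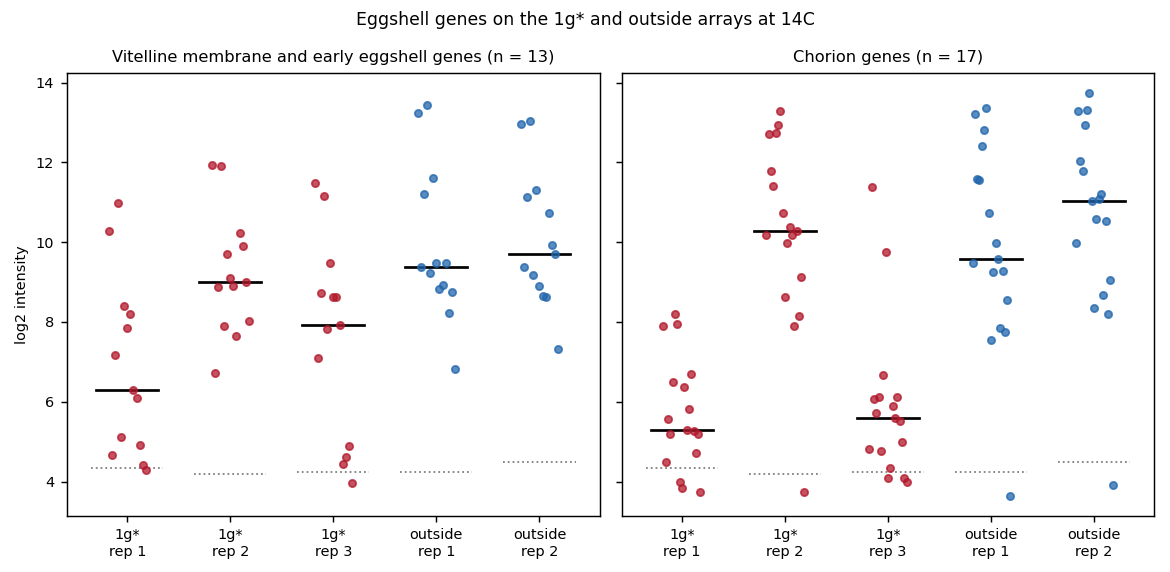
Log2 intensity of 13 vitelline membrane and early eggshell genes (left) and 17 chorion genes (right) on each 1g* and outside array at 14C, with the list median (solid line) and the array background (dotted line). Vitelline membrane medians are lower on all 3 arrays at 1g*, while chorion medians are low on replicates 1 and 3 and at the outside level on replicate 2.

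Germline and cell cycle transcripts followed the vitelline membrane genes in direction. Of 29 oocyte and germline genes, 15 were lower and 1 higher at an unadjusted p under 0.05, where 12.2% of all genes were lower. The median was -0.65, and -0.36 without outside replicate 1, and the array medians overlapped, with 9.04 on 1g* replicate 2 against 9.35 and 9.0 outside. bam, which starts germ cell differentiation, read 6.96, 7.92 and 7.29 at 1g* and 9.20 and 8.56 outside (difference -1.49, SE 0.34, adjusted p = 0.172). The piRNA pathway genes zuc and AGO3 differed by -0.85 (SE 0.23) and -1.23 (SE 0.33). Of 24 DNA replication and cell cycle genes, 15 were lower and 0 higher, against the same 12.2%, with a median of -0.88. CycB3 read 8.21, 10.16 and 9.22 against 10.62 and 10.45 (difference -1.34, SE 0.44) and fzy, the activator of anaphase, 6.63, 8.71 and 7.74 against 9.36 and 8.92 (difference -1.45, SE 0.48). In each of these genes replicate 1, the array with male transcripts, was lowest and replicate 2 nearest to the outside arrays. Against the same outside arrays, the germline median was 0.02 at 0g* and -0.10 at 2g*, and that of the cell cycle list 0.01 and -0.04. Without 1g* replicate 1 the list medians at 1g* were -0.35 (germline) and -0.49 (cell cycle), and -1.71 for the vitelline membrane genes. The part of the male transcripts in these values was not tested.

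Other stress and immune lists differed among themselves. The list of heat shock proteins and chaperones (13 measured) gave a median of -0.15 (-0.36 to -0.06 with any 1 array left out), with the co-chaperone gene stv higher (0.86, SE 0.25) and DnaJ-1, Hsp27 and Hsp26 lower (-0.59, -1.62 and -1.46), and 0 passed. Hsp27 read 8.37, 10.75 and 9.04 at 1g* and 11.46 and 10.56 outside, in the order of the germline genes. Of 9 JAK/STAT signalling genes, through which Turandot genes can be induced, 0 were higher and 3 lower at an unadjusted p under 0.05 (10.4% and 12.2% of all genes). The lower ones were the receptor gene dome (-0.56, SE 0.24) and the inhibitors Su(var)2-10 (-1.0, SE 0.36) and Ptp61F (-0.81, SE 0.30). The ligand genes upd1 and upd2 differed by -0.12 (SE 0.19) and -0.19 (SE 0.14), upd1 at background. The 20 antimicrobial and immune induced genes had a median of 0.05 (-0.01 with arrays centred), with the NF-kappaB gene Rel at 9.38, 9.23 and 9.37 against 8.90 and 8.80 (difference 0.48, SE 0.14, adjusted p = 0.196). Of 21 oxidative stress and detoxification genes, 7 were higher and 0 lower at an unadjusted p under 0.05, against the same 10.4% and 12.2%. Upward, 8 did not overlap (38.1%, against 17.8% of all genes). Their median was 0.30, and 0.19 and 0.08 without 1g* replicates 1 and 3, and the smallest p values were those of Keap1 (0.54, SE 0.16) and GstD2 (1.58, SE 0.47).

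Genes that handle iron or sense force gave small differences. The 23 iron, copper and zinc genes had a median of -0.04, which was 0.04 after repeated quantile normalization. Irp-1B, an iron regulatory protein, had a mean of 9.86 at 1g* and 9.20 outside, with no overlap (difference 0.66, SE 0.14, adjusted p = 0.172), and the mitochondrial iron carrier gene mfrn differed by 0.69 (SE 0.18, adjusted p = 0.192), while the transferrin relative Tsf2 differed by -0.49 (SE 0.18). The 14 mechanosensory and gravity sensing genes had a median of 0.15 (0.10 without 1g* replicate 3), and 0 passed. At an unadjusted p under 0.05, 2 were higher, nompA (0.56, SE 0.25) and wtrw (0.46, SE 0.20), where 10.4% of all genes were higher. Ribosomal protein genes (29) had a median of -0.09 and cuticle genes (69) of 0.04, the latter -0.02 with arrays centred on their medians.

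**Figure D4:**
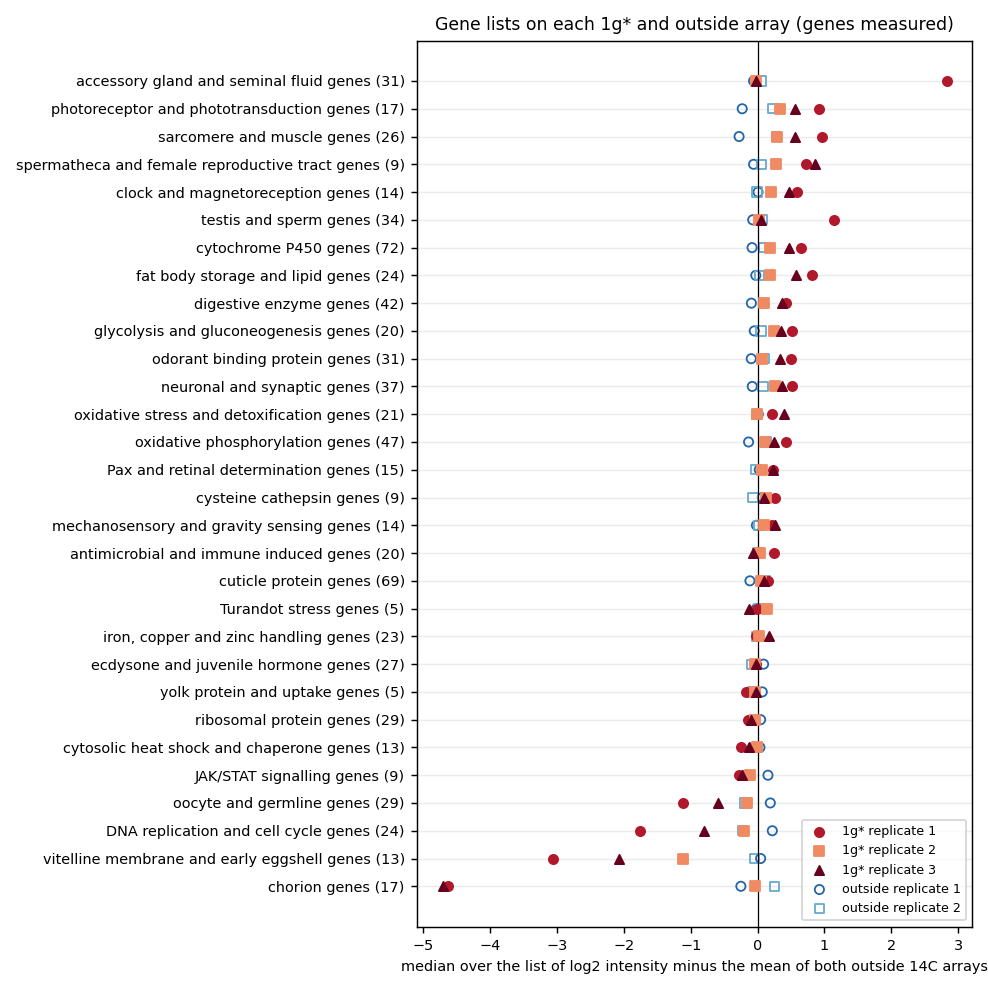
Median over each of 30 gene lists of the log2 intensity minus the mean of both outside 14C arrays, for each 1g* array (filled) and each outside array (open), with the number of genes measured. Replicate 1 is set apart by the accessory gland genes (2.83), replicates 1 and 3 by the chorion genes (-4.62 and -4.71), and replicate 2 lies nearest to 0 in most lists.

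The number of calls turned on which arrays were compared. Without 1g* replicate 2, 474 probe sets were up-regulated (2.53%) and 737 down-regulated (3.93%), including all 5 above. The largest rise among probe sets named here was that of 1635549_at (4.96, adjusted p = 0.00652), and among genes with a symbol those of TotC (4.34, adjusted p = 0.0328), Send2 (3.90, adjusted p = 0.00412), the serine protease CG17234 (3.54), Fbp2 (3.04), CG34040 (2.77) and the cuticle gene Cpr92F (2.62). The largest falls of such genes were those of Cp36 (-6.58, adjusted p = 0.035), Cp38 (-6.24), CG11381 (-4.55), Vm26Ac (-3.50), Cp7Fc (-3.38) and Vm32E (-3.23). By list, 14 of 29 germline, 7 of 24 cell cycle, 5 of 13 vitelline membrane and 4 of 17 chorion genes fell, and 10 of 72 P450, 5 of 14 clock, 3 of 17 photoreceptor, 3 of 26 muscle and 3 of 37 neuronal genes rose, where 3.0% of all genes rose and 5.45% fell. Both arrays left, replicates 1 and 3, are those with low chorion levels, and replicate 1 is that with male transcripts.

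The outside group also bears on the count. Its 24C replicate 1 has a title of 24C but a recorded temperature of 14C. In a fit chosen after seeing the data, that array was placed with the outside arrays at 14C, and 998 probe sets were up-regulated (5.32%) and 856 down-regulated (4.56%), again with all 5. By list, 19 of 72 P450, 11 of 37 neuronal, 8 of 20 glycolysis, 6 of 26 muscle and 6 of 24 fat body genes rose, and 12 of 29 germline, 10 of 24 cell cycle and 5 of 13 vitelline membrane genes fell, where 6.58% of all genes rose and 6.16% fell. Osi6, which had the largest fall (-3.61), was at 9.93 and 4.00 outside at 14C and at 8.86 on the added array. The photoreceptor median of that array was 5.75, with the other 24C arrays at 6.18 and 5.89 and the outside arrays at 14C at 7.55 and 7.72. With it placed there and 1g* replicate 1 left out, 8 rose and 2 fell. These 10 held the same 5 as well as Ugt37C2 (0.89) and Diedel (1.78) upward and CG11523 (-1.02) and CG30413 (-0.98) downward, with an unnamed probe set, 1623635_at, as the last. In that fit TotC rose by 5.04 (adjusted p = 0.0128), CtsL3 by 1.56 and toy by 1.63 (adjusted p = 0.035 each).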

How the data were processed

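Total RNA of adult flies had been labelled with biotin and hybridised to Drosophila 2.0 arrays made by Affymetrix. The authors deposited log2 intensities that they had computed with RMA (background correction, quantile normalization and summarization per probe set) and gave with 2 decimals. They also name limma, with neither version given in the sources used here. RMA makes array distributions alike, so a difference is relative to all probe sets of an array, and a shift of all transcripts cannot be seen.

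Of 18952 probe sets, 183 controls were left out and 18769 tested. There were 13647 with 1 gene symbol, 402 with several and 4720 unnamed here. 13544 were matched by gene identifier to current symbols, and 0 symbols changed. Probe sets with 1 symbol covered 11982 genes, and each gene on a list is given by its probe set with the highest mean. Background on an array was taken as the 95th percentile over its 50 plant controls (4.09 to 4.49), and a group mean under it counted as background. Array medians were 5.26 to 5.50. The number of arrays limits the precision.

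Group means of 14 magnet arrays in 5 groups were fitted in limma 3.58.1 under R 4.3.3 (9 residual degrees of freedom), with moderated variances and p values adjusted over all probe sets by the method of Benjamini and Hochberg. A probe set had changed at an adjusted p under 0.05. Calculations on simulated arrays were used to check the fit. The titles call the replicates biological. No 2 arrays were copies of each other: at most 2.26% of values were equal in a pair.

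Genes are named where they passed, where they were among the 10 smallest p values per direction without overlap between groups and above background, among the 3 smallest of a gene list, or among the 6 largest per direction in a fit without 1 array that made over 100 calls, and among the 5 smallest per direction against 0g* and 2g*. Yp1, Yp2, Yp3, cry and the Turandot genes were named whatever their values, and further members of the lists are named for their role. The members, lists and rules were chosen with earlier results of these data known. Of 30 lists with 738 distinct genes, 209 entries had no probe set of a single symbol. Lists are described by counts and medians, with no test. Alternatives were other normalization, filters, weights, blocks, array sets and each array left out.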

Additional observations from a re-analysis of the deposited data

Results flagged for a closer look

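The 80 h runs were not part of the comparison. In them, flies at 1g* were kept at 14C and the outside flies at 24C, so field and temperature cannot be told apart, and no test was made. The levels of the probe sets called at 1g* are given side by side, and the share of all probe sets without overlap in these runs was not counted. TotC read 8.45 and 10.91 at 1g* against 7.87, 7.52 and 7.11 outside (difference of means 2.18), and 1635549_at 9.45 and 11.68 against 9.36, 8.42 and 8.51 (1.80). CtsL3 read 7.34 and 7.40 against 6.65, 6.79 and 6.66 (0.67), and toy 5.35 and 4.89 against 4.67, 4.59 and 4.56 (0.51). The values of 1623757_at overlapped. The highest TotC value of the whole series, 12.19, stood on an 80 h array at 0g*. 80 h 1g* replicate 1 also carried male transcripts, with an accessory gland median of 7.05.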

How the results depend on the processing

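Limits come first from numbers: 3 arrays stood against 2, and 1g* replicate 1 held male transcripts. The count of 5 probe sets became 3 in a fit of both compared groups alone and 3 without the outside 24C arrays, 1 with arrays centred on their medians (which moves the median of all probe sets to -0.07), and 11 with the array letter of the descriptions as a term. With the replicate block it was 2, 1635549_at and TotC. Leaving out 1 array gave 0 to 1211. In the fits chosen after seeing the data it was 1854 with 24C replicate 1 placed with the outside 14C arrays, 1358 when the other 24C arrays were also left out, 10 when 1g* replicate 1 was left out instead, and 3652 with all 5 outside arrays as one group. Array weights gave 6, but their estimation stopped before convergence. Repeated quantile normalization gave 5 and the filter on dim probe sets 5. CG11523 fell in both the weighted and the quantile fit. For 1g* against the mean of 0g* and 2g*, the count of 0 became 1 without the outside 24C arrays, 6202 with array weights, 1 with the replicate block and 3 with the array letter, and 0 to 2612 with 1 array left out. Causes were not tested.

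The labels do not say that a replicate number marks a shared culture or day, so the block was an alternative only. Array letters were D, E and F for 1g* replicates 1, 2 and 3 but D and F for outside replicates 1 and 2. Replicate numbers and letters thus pair outside replicate 2 with different 1g* arrays. With 2 outside arrays, whose deviations are exact opposites, the data could not settle the pairing: the deviations of 1g* replicates 1, 2 and 3 correlated at -0.34, 0.34 and 0.09 with those of outside replicate 1. Of 1898 values of single genes under the alternatives, 1593 kept their side of the threshold, 271 passed where the reported value had not, 34 no longer passed, and 0 called values reversed. These values came from 112 single results, of which only 5 were called, so the number that kept their side says little about the calls. All 34 that no longer passed were values of those 5. Of 510 list medians, 494 moved by less than the spread of the 1g* array medians. The medians of 7 lists changed sign under some alternative: the Turandot, yolk, immune, cuticle, hormone and metal lists, whose reported medians were within 0.1 of 0, and the accessory gland list, at 1.07 and within 0.01 of 0 in each fit without 1g* replicate 1.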

Other observations

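Chromosome 4, the smallest autosome, stood apart in a summary by chromosome arm that was chosen after toy had been seen among the calls. Its 65 measured genes had a median difference between 1g* and outside of 0.27, against -0.04 to 0.01 on the other 5 arms. The 1g* arrays did not overlap upward with the outside arrays for 27 of the 65 (41.5%) and downward for 2 (3.08%), whereas the other arms had 15.9% to 18.5% upward and 12.6% to 14.7% downward. The median shift of these genes from the outside mean was 0.36, 0.15 and 0.10 on 1g* replicates 1, 2 and 3, and the median difference stayed between 0.15 and 0.29 with any 1 array left out. At 0g* and 2g* the medians against the same outside arrays were 0.08 and -0.02. After toy, the calcium pump gene PMCA read 10.94, 10.37 and 10.53 at 1g* and 9.55 and 10.07 outside (difference 0.80, SE 0.25, adjusted p = 0.202) and the receptor gene Ekar 6.10, 6.30 and 6.17 against 5.56 and 5.73 (0.55, SE 0.19). The ligand and receptor genes Ephrin and Eph differed the other way (-0.74 and -0.59). Genes of an arm are not independent replicates, and apart from toy 0 of them passed.

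Osi6, of the Osiris cluster on 3R, was at 9.93 on outside replicate 1 and at 8.86 on outside 24C replicate 1, and between 3.84 and 4.49 on the other 12 arrays of the fit.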
